A study of Homo sapiens with 8 samples.

Results

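SMAD3 occupancy was examined at the promoters of 9 genes of the TGFβ1 growth arrest program: the cyclin-dependent kinase (CDK) inhibitors CDKN1A, CDKN1B, CDKN1C, CDKN2A, CDKN2B, CDKN2C and CDKN2D, the transcription factor gene MYC and the phosphatase gene CDC25A. All probes whose gene name or annotated distance to a transcription start names 1 of these genes were taken, which gave 351 of 474411 promoter probes, for 9 of 17133 genes with an annotated distance. The DNA came from A549, a human lung adenocarcinoma cell line, serum-starved and then either left at the basal level or stimulated with TGFβ1 at 2 ng/ml. The labels give a stimulation of up to 2 h, and a shorter time is stated in the text of the study. On each array DNA precipitated with a SMAD3 antibody (SMAD3 IP, Cy5) was hybridised together with DNA of an anti-flag precipitation (mock IP, Cy3), after both had been amplified by ligation-mediated PCR. Each condition had 2 replicates and each replicate 2 slides of different probes, 8 arrays in all. All groups were the same cell line, so no genotype differed between them. The labels call the replicates biological and say nothing more of the cultures, so the tests measure the spread between 2 samples per condition.

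TGFβ1 receptors phosphorylate SMAD3, which then enters the nucleus with SMAD4 and acts at promoters together with other factors. In many epithelial cells this arrests growth in the G1 phase. The arrest is known for induction of CDKN2B and CDKN1A, which restrain the cyclin-dependent kinases, and for repression of MYC and CDC25A, which drive entry into the S phase. The CDKN2 (INK4) products bind CDK4 and CDK6, and the CDKN1 (Cip/Kip) products bind cyclin and kinase complexes. SMAD3 recognises the short element CAGAC, and GC-rich elements such as GGCGC are also known to be bound.

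The bases upstream of 4 genes are shown because 2 of them, CDKN1A and CDKN2B, are the inhibitors best known as SMAD targets and the other 2, CDKN2D and CDC25A, had promoter windows whose ratio changed. Of the 9 genes, 7 were matched by symbol to promoters of RefSeq (GRCh38.p14), with 10 starts in all, and CDKN1C and MYC are given by name alone. Each stretch has 250 bases, runs 5′ to 3′ on the strand of the gene and ends at the base before the start. Capitals mark GGCGC on either strand. The starts are those of RefSeq and may differ from the starts to which the array annotation refers. The stretches are chr6:36678464-36678713 (+) for CDKN1A, chr9:22009306-22009555 (-) for CDKN2B, chr19:10568980-10569229 (-) for CDKN2D and chr3:48188418-48188667 (-) for CDC25A.
CDKN1A: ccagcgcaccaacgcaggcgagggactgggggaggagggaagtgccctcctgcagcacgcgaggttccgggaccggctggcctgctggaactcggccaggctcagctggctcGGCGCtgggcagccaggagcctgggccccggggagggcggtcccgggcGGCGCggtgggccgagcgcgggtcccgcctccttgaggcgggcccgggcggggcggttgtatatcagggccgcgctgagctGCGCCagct
CDKN2B: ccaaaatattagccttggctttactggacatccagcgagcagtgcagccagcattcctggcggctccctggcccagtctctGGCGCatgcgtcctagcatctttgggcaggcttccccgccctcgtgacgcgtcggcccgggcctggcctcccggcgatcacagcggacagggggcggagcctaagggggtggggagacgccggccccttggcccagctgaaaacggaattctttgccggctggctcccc
CDKN2D: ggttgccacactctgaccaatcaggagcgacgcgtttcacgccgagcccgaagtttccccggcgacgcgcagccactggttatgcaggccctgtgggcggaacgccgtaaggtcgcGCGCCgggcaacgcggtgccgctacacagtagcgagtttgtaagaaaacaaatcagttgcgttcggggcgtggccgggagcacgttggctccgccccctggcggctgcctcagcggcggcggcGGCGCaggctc
CDC25A: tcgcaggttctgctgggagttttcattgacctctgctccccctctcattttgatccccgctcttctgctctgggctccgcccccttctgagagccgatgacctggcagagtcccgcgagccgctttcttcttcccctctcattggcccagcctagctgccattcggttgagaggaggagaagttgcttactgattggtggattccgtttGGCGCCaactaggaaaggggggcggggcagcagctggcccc

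Both strands of these 250 bases were searched for CAGAC, for its palindrome GTCTAGAC, for GGCGC and for GGGCGG, the core bound by SP1. GGCGC occurred 3 times upstream of CDKN1A, 1 time upstream of CDKN2B and 2 times upstream of both CDKN2D and CDC25A, while 44.5% of 35116 promoters held it. The 2 matches of CDC25A overlap each other in the bases GGCGCC, 1 on each strand. One of the GGCGC matches of CDKN1A overlapped a GGGCGG match. GGGCGG occurred 4 times upstream of CDKN1A and 2 times upstream of CDKN2B, CDKN2D and CDC25A each, against 42.6% of all promoters with a match. CAGAC was in none of the 4 stretches and in 38.0% of all promoters. It was found upstream of 1 of 2 starts of CDKN2A and of 2 of 3 starts of CDKN2C. GTCTAGAC was in 0.182% of all promoters and in none of the 10 of these genes. These are matches of letters in short windows and were not tested for occupancy.

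The arrays gave low signal. A probe counts as well above background where its signal exceeds the background by 2.6 SD in the scanner software, which held in both channels for 38.7% to 51.5% of the probes of an array and on all 4 replicates for 34.0%. Ratios are given as log2 of SMAD3 IP over mock IP, with the median probe of the array set to 0. Across 16299 promoter windows the basal replicates correlated at 0.947 and the stimulated ones at 0.95, and replicates of different conditions at 0.256 to 0.276. In these ratios the 2 conditions thus stood far apart over all genes. Over the same windows the SMAD3 IP signals of different conditions correlated at 0.828 to 0.9 and the mock IP signals at 0.719 to 0.807. What else differed between the cultures, precipitations and amplifications of the 2 conditions cannot be told apart from the stimulation. A promoter window was the mean over all probes that lay no more than 2000 bp before and 800 bp after the start (bounds fixed from the methods of the study), and 145 of the 351 probes lay in such windows.

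Of the 9 windows, 3 changed after TGFβ1 stimulation. The ratio rose at CDKN2D, which binds CDK4 and CDK6, and fell at CDKN1C, an imprinted Cip/Kip inhibitor, and at CDC25A, which removes inhibitory phosphates from CDKs. The windows of CDKN2B, CDKN1A and MYC, the genes best known for the arrest, did not pass the test. Over all windows 20.3% rose and 27.5% fell, 47.8% in either direction (limma, Benjamini-Hochberg adjusted p under 0.05), so 3 of 9 lay below the background. The median log2 change was -0.04 over the 9 windows and -0.06 over all windows.

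The basal replicates of CDKN2D had log2 ratios of -0.87 and -0.81, and the stimulated replicates -0.12 and -0.07. Both stimulated values lay above both basal ones, and the change was 0.74 (SE 0.13, adjusted p = 0.00212). At CDKN1C the values were 0.55 and 0.65 at the basal level and -1.17 and -0.69 after stimulation, and they did not overlap. This was the largest change of the 9 windows, -1.53 (SE 0.18, adjusted p = 0.000237), and it went from above to below the array median. Within 500 bp of the start it was -0.75, from 1.46 to 0.71, and CDC25A changed by more there (-1.83), while over all probes of the gene CDKN1C changed by -0.63 and CDKN2D by 0.72. CDC25A had -0.40 and -0.58 at the basal level and -1.15 and -1.51 after stimulation, a change of -0.84 (SE 0.16, adjusted p = 0.00361). With the normexp background correction none of these 3 calls passed the limma test, with 3 of the 9 windows at an unadjusted p under 0.05: the changes kept their signs but were 0.41 (adjusted p = 0.274) at CDKN2D, -0.83 (0.051) at CDKN1C and -0.33 (0.124) at CDC25A. Within 500 bp of the start, CDKN2D changed by 0.00 (adjusted p = 0.993).

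The CDKN1A window was at -0.63 and -0.77 at the basal level and at -0.29 and -0.45 after stimulation, a change of 0.33 (SE 0.14, adjusted p = 0.0854) with no overlap of the replicates. It passed without centring (0.49, adjusted p = 0.0162) and with loess (0.41, 0.0188). CDKN1B, another Cip/Kip inhibitor, had 0.25 and 0.23 against -0.29 and 0.01, and the change was -0.38 (SE 0.15, adjusted p = 0.0694). Without the second stimulated replicate it became -0.53 (adjusted p = 0.043). CDKN2A gave 0.11 and 0.31 against 0.58 and 0.41, a change of 0.28 (SE 0.15, adjusted p = 0.152). In the fit as reported these 3 genes did not pass the test.

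CDKN2B lay close to the array median throughout, with 0.03 and 0.00 at the basal level and 0.05 and 0.07 after stimulation, a change of 0.04 (SE 0.13, adjusted p = 0.822). CDKN2C gave -0.06 and -0.21 against -0.19 and -0.32, a change of -0.12 (SE 0.14, adjusted p = 0.517), and its conditions overlapped. At MYC the basal replicates were far apart, at -0.06 and -0.66, and enclosed the stimulated ones at -0.37 and -0.42, so that a change of -0.04 (SE 0.20, adjusted p = 0.905) was measured with little precision. Replicates of the conditions did not overlap in 7 of the 9 windows, which compares with 74.9% of all windows.

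**Figure D1:**
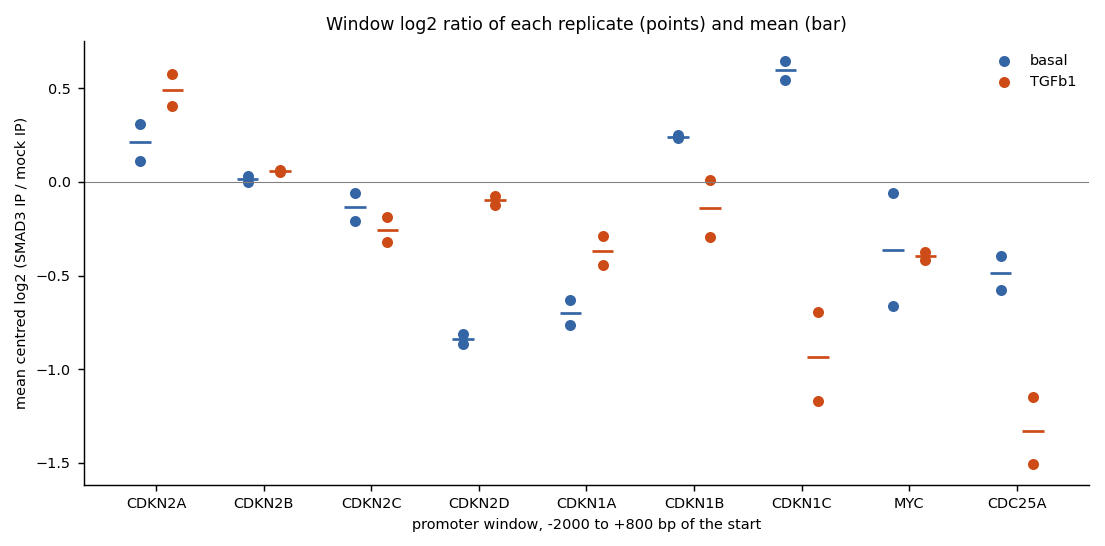
Mean centred log2 ratio (SMAD3 IP over mock IP) in the promoter window of each gene; points are the 2 basal (blue) and 2 stimulated (orange) replicates, bars their means, and 0 is the median probe of the array. CDKN1C falls from 0.55 and 0.65 to -1.17 and -0.69. The replicates of the conditions overlap only at CDKN2C and MYC, and the basal replicates of MYC lie far apart.

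Against the array median, 1 of the 9 windows was higher at the basal level and 3 were lower. The higher one was CDKN1C (mean 0.60, adjusted p = 0.00406), and the lower ones were CDKN2D (-0.84, 0.000122), CDKN1A (-0.70, 0.000475) and CDC25A (-0.49, 0.00734). Over all windows 20.7% were higher and 38.1% lower, 58.8% in all, in the same limma fit. After stimulation 1 window was higher and 4 were lower, where all windows gave 16.5% and 42.5%, 59.0% in all. CDKN2A was the higher one (mean 0.49, adjusted p = 0.00376), and CDC25A (-1.33, 3.14e-05), CDKN1C (-0.93, 0.00035), CDKN1A (-0.37, 0.0125) and MYC (-0.40, 0.04) were lower. Within 500 bp of the start CDKN1C was instead higher after stimulation (0.71, limma adjusted p = 0.00183). CDKN2A was there at 0.02 (0.893), CDKN1A at 0.18 (0.258) and MYC at -0.02 (0.931), while CDC25A stayed lower (-1.54, 0.000292). Without the first stimulated replicate the adjusted p of CDKN2A was 0.067 and that of MYC 0.22, without the second one MYC had 0.271 and CDKN1A 0.122, and without the second basal replicate CDC25A had 0.0651 at the basal level.

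A ratio moves when either channel moves, so each channel was tested on its own over the same windows. By limma the SMAD3 IP signal changed in none of the 9 windows, and in 0 of them at an unadjusted p under 0.05, where 0.804% of all windows rose and 1.75% fell, 2.55% in all. The mock IP signal rose at CDKN1C and fell at CDKN2D, where 6.37% of all windows rose and 7.55% fell, 13.9% in all. At CDKN1C the log2 mock signal, centred on the array median, was 3.23 and 3.33 at the basal level and 4.44 and 4.81 after stimulation, a rise of 1.34 (SE 0.22, limma adjusted p = 0.035). Its SMAD3 IP signal was 4.34 and 4.67 against 3.84 and 4.93, which overlapped, with a change of -0.12 (SE 0.43, adjusted p = 0.923). CDKN2D had mock signals of 4.65 and 4.71 that fell to 3.03 and 3.30, by 1.52 on the log2 scale (SE 0.20, adjusted p = 0.0221). The SMAD3 IP signal of CDKN2D was 4.35 and 4.59 against 3.48 and 4.04, a change of -0.71 (SE 0.31, adjusted p = 0.423).

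At CDC25A the mock signal was 1.86 and 3.24 at the basal level and 3.71 and 4.13 after stimulation, a difference of 1.37 (SE 0.54, adjusted p = 0.204). The SMAD3 IP signal there was 1.66 and 2.78 against 2.57 and 2.71. Mock signals of the 2 conditions did not overlap in 6 of the 9 windows, the 3 whose ratio changed among them, and in 61.7% of all windows. In these 3 they differed in the direction opposite to the ratio, as in 69.1% of all windows whose ratio changed. Leaving out the first or the second stimulated replicate, the mock change was 1.53 and 1.16 at CDKN1C and -1.38 and -1.65 at CDKN2D. Neither mock call was kept in these fits, in which the spread came from the basal pair alone. Without the first basal replicate the mock change was -0.73 at CDKN1A and 0.68 at CDC25A, and without the second one 0.40 and 2.06. There the spread came from the stimulated pair alone. The first basal replicate had the lower signal of the 2 basal ones in both channels at all 6 genes on slide 1, for example 0.85 against 2.00 in the mock channel of MYC.

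**Figure D2:**
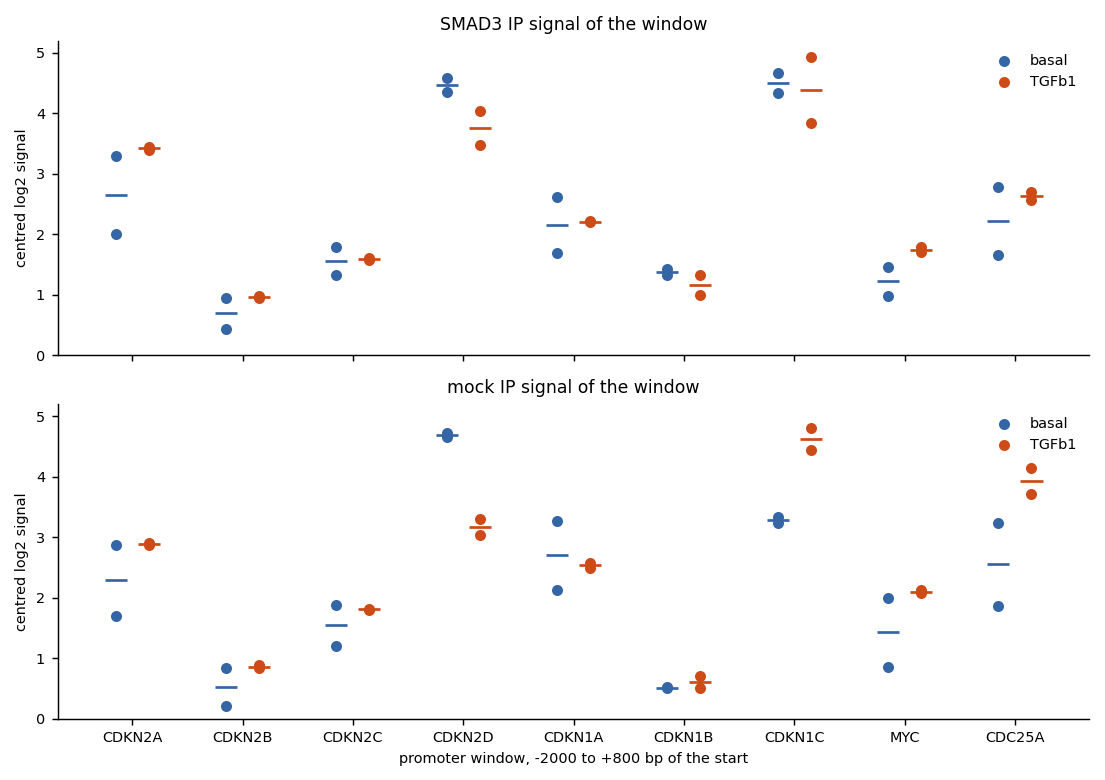
Centred log2 signal of the SMAD3 IP (top) and of the mock IP (bottom) over each promoter window; points are the 2 basal (blue) and 2 stimulated (orange) replicates and bars their means. The conditions differ most in the mock channel at CDKN1C, CDKN2D and CDC25A, and the basal replicates are far apart at CDKN2A, CDKN1A, MYC and CDC25A.

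Single probes changed in both directions at most of these genes. Of 351 probes, 25 rose and 30 fell, 15.7% in all, where 10.5% of all 473007 probes kept rose and 12.4% fell, 22.9% in either direction. Of the 351, 115 (32.8%) were well above background in both channels on all 4 replicates. Among these 115, 35.7% changed, compared with 44.4% of such probes over the arrays. CDKN1C had the most probes that changed, 6 higher and 9 lower of 38, followed by CDKN2D with 6 and 2 of 21. CDKN2C had 0 and 2 of 55 and CDKN2B 1 and 1 of 33. Of the CDKN1C probes 65.8% were well above background on all arrays, beside 38.6% of all probes of slide 2, which held this gene. Among such probes 12 of 25 changed at CDKN1C and 7 of 11 at CDKN2D, beside the 44.4% over the arrays. Of the 55 probes that changed, 14 were not well above background on every array and are given here only as a count.

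**Figure D3:**
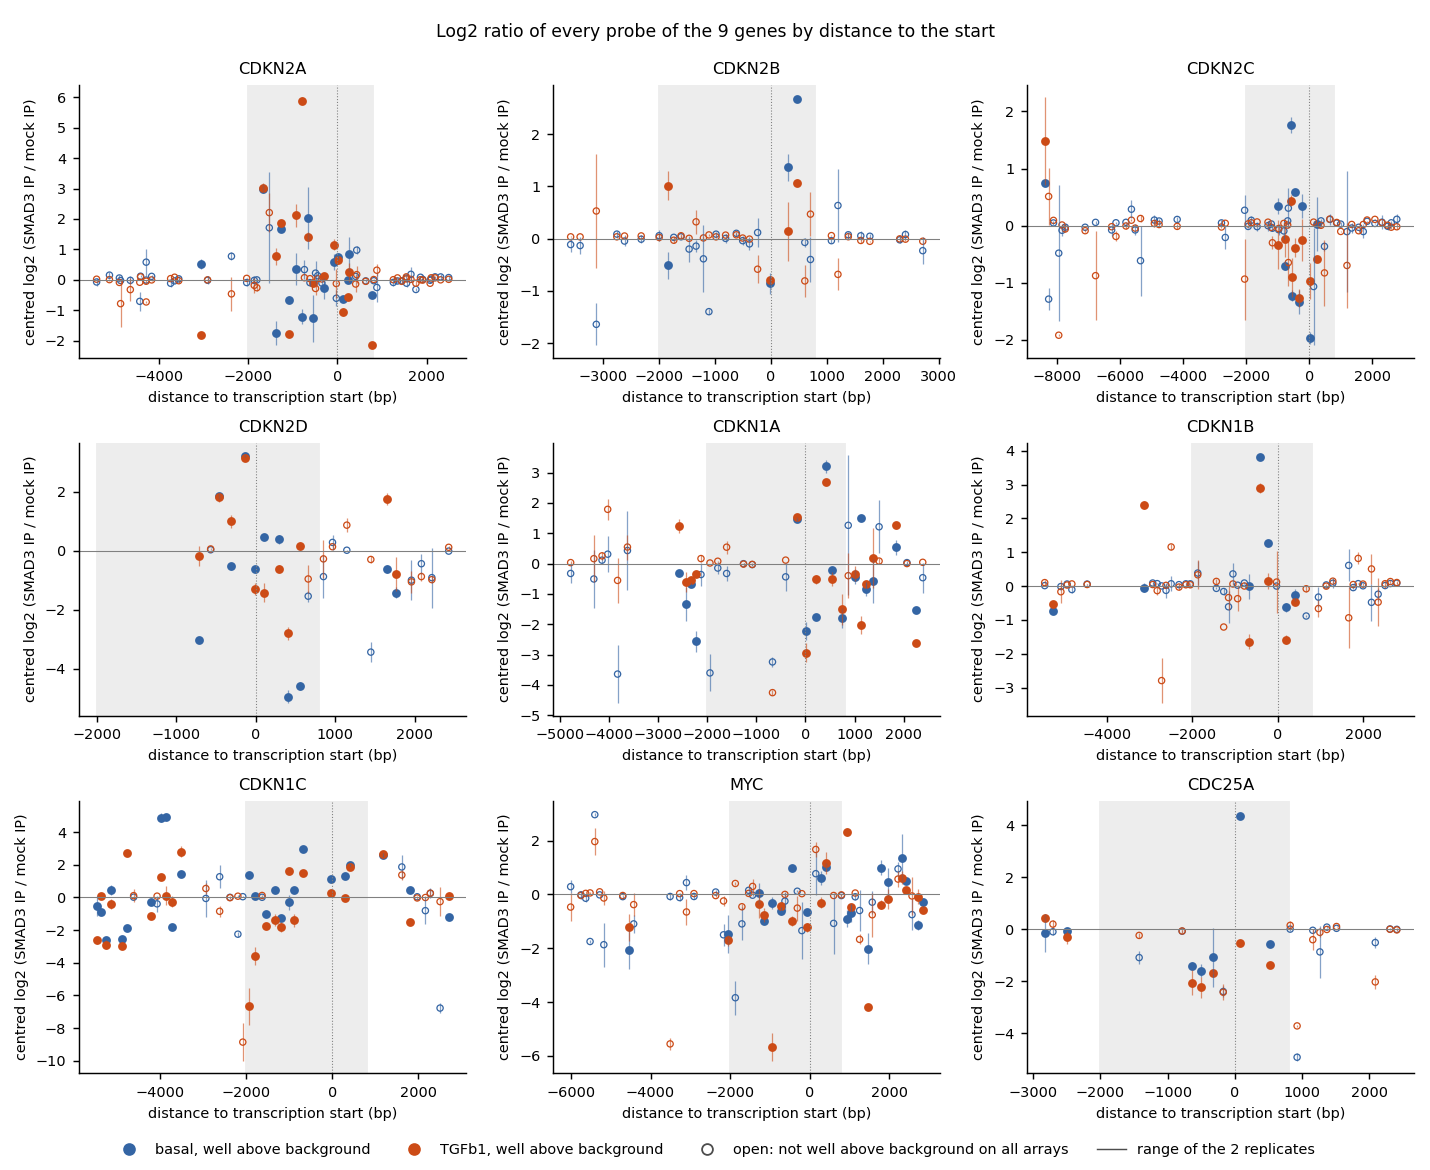
Centred log2 ratio of each probe against its annotated distance to the start, with the mean of the 2 basal (blue) and the 2 stimulated (orange) replicates, vertical lines for the range of the replicates and the promoter window in grey; filled points were well above background in both channels on all arrays. Neighbouring probes of a gene often differ in level and in direction of change, and open points gather near 0.

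CDKN2A encodes the CDK4 inhibitor p16 and, from a start further upstream, the MDM2 inhibitor ARF, and its probes refer to both starts, 32 to the ARF start and 28 to the p16 start. A549 is known to lack both copies of this gene, and copy number was not tested here. Of its 60 probes 16 (26.7%) were well above background on all arrays, compared with 29.5% of all probes of slide 1, which held this gene. By start these were 13 of the 32 ARF probes and 3 of the 28 p16 probes. The neighbouring CDKN2B had 4 of 33 (12.1%). The ARF window gave 0.14 and 0.42 at the basal level and 0.88 and 0.80 after stimulation, the p16 window 0.06 and 0.13 against 0.05 and -0.27.

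One probe of CDKN2A, at -785 bp of the ARF start, had the largest rise of all 351 probes. Its log2 ratio was -0.97 and -1.45 at the basal level and 5.78 and 5.99 after stimulation, a change of 7.10 (SE 0.23, limma adjusted p = 0.00236), or 137-fold. The processed SMAD3 IP signal went from 757 and 871 to 50850 and 41760, while the mock signal was 1255 and 1702 against 699 and 424. Here the SMAD3 IP channel moved and the 2 conditions were far apart. The ratio also rose at -1385 bp of the ARF start, by 2.52, and fell by 1.12 at -1080 bp, by 0.59 at 237 bp and by 1.64 at 780 bp of that start. At -3048 bp of the p16 start it fell by 2.34. The probe nearest a start, at -23 bp of the p16 start, was not well above background on every array and had -0.86 and -0.34 against 0.35 and -0.58, with no call (adjusted p = 0.611).

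CDKN2B encodes p15, the inhibitor that TGFβ1 is best known to induce. Only 1 of its 4 probes well above background changed, at 474 bp downstream of the start, where the log2 ratio was 2.70 and 2.62 at the basal level and 1.13 and 1.00 after stimulation. It fell by 1.60 (SE 0.11, limma adjusted p = 0.00648) and stayed above the array median in both conditions. At this probe the SMAD3 IP signal was 5280 and 12450 against 10080 and 10730, which overlapped, while the mock signal was 688 and 1437 against 3469 and 3460. With normexp the change of the ratio at this probe was -0.0096 (adjusted p = 0.997). The probe nearest the start, at -3 bp, gave -0.65 and -1.06 against -0.78 and -0.80, with a change of 0.07 (SE 0.19, adjusted p = 0.879). When the window was narrowed to 500 bp around the start, where the probe at 474 bp weighs more, the mean of CDKN2B changed by -0.55 (adjusted p = 0.0333).

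CDKN2C encodes p18 and has 2 annotated starts. The upstream start lies in a divergent promoter, and its 31 probes are shared with the gene on the other strand, so that these values cannot be assigned to CDKN2C alone. The 2 probes that fell were among these 31. At -574 bp the log2 ratio went from 1.90 and 1.62 to 0.53 and 0.34, a change of -1.32 (SE 0.16, limma adjusted p = 0.0197), and at -443 bp it changed by -0.98 (adjusted p = 0.0365). At the downstream start none of 24 probes changed by limma, with 1 at an unadjusted p under 0.05, and the probe 15 bp from it gave -1.86 and -2.06 against -0.65 and -1.29 (adjusted p = 0.118).

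CDKN2D encodes p19, which also binds CDK4 and CDK6, and its probes rose on both sides of the start while 2 probes just inside the gene fell. The largest rise was at 557 bp, where the log2 ratio was -4.72 and -4.46 at the basal level and 0.01 and 0.29 after stimulation, a change of 4.74 (SE 0.18, limma adjusted p = 0.00268). Both channels lost signal at this probe. The mock signal went from 140400 and 114900 to 174 and 111, and the SMAD3 IP signal from 7931 and 7681 to 290 and 218. The ratio also rose at -716 bp by 2.84, at -303 bp by 1.53, at 402 bp by 2.14 and at 1654 bp by 2.37. At the 5 probes well above background that rose the mock signal changed more than the SMAD3 IP signal, from -1.57 to -9.98 on the log2 scale. At 105 bp and 300 bp the ratio fell by 1.91 and 0.99, and there the SMAD3 IP signal changed more, by -1.46 and -0.93. The probe nearest the start, at -4 bp, had -0.64 and -0.56 against -1.49 and -1.11 and no call (adjusted p = 0.0982).

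CDKN1A encodes p21, which inhibits CDK2 complexes. Of its 16 probes well above background 5 changed. The largest change was at 1131 bp, where the log2 ratio was 1.48 and 1.53 at the basal level and -1.73 and -2.31 after stimulation, a change of -3.52 (SE 0.25, limma adjusted p = 0.0066). The SMAD3 IP signal at this probe was 29870 and 39600 against 2229 and 1942, and the mock signal 9113 and 9781 against 5591 and 6232. The ratio fell also at 2249 bp, by 1.09, and rose at -2579 bp by 1.55, at -2226 bp by 2.23 and at 217 bp by 1.23. At -2579 bp the SMAD3 IP signal was 339 and 301 at the basal level and 1196 and 1410 after stimulation. At -2226 bp it was the mock signal that stood apart, 5292 and 6445 against 847 and 852. The probe nearest the start, at 20 bp, gave -1.92 and -2.50 against -2.62 and -3.26 (adjusted p = 0.332).

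CDKN1B encodes p27, another inhibitor of CDK2 complexes. Its highest ratio lay at -409 bp, with 3.78 and 3.87 at the basal level and 2.74 and 3.04 after stimulation, and it fell there by 0.93 (SE 0.15, limma adjusted p = 0.037). The ratio also fell at 190 bp, by 0.96. It rose at -3120 bp, outside the window, from -0.18 and 0.08 to 2.51 and 2.27, by 2.44 (SE 0.17, adjusted p = 0.0064). In these 3 probes of CDKN1B the SMAD3 IP signal changed more than the mock signal, for example 1217 and 1462 against 5498 and 8034 at -3120 bp. The probe nearest the start, at -28 bp, was not well above background on every array, and its 2 stimulated replicates were at -0.79 and 1.03.

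CDKN1C encodes p57, and 9 of its probes lie in a divergent promoter shared with SLC22A18. It had the most probes that changed and also the largest share of probes well above background (65.8%). At -1940 bp the log2 ratio was 1.29 and 1.5 at the basal level and -7.79 and -5.53 after stimulation, a change of -8.05 (SE 0.90, limma adjusted p = 0.0158), or 265-fold. The mock signal at this probe was 113 and 133 against 37430 and 75900, while the SMAD3 IP signal was 413 and 552 against 280 and 2638 and overlapped. The neighbouring probe at -1798 bp fell by 3.70, also with a higher mock signal (1243 and 1408 against 21280 and 23410). At -1338, -673 and 294 bp the ratio fell by 1.82, 1.51 and 1.30. These 5 probes lie in the window, were named because they passed the test, and went the same way. Of the window probes without a call, that at -1017 bp rose by 1.92 (limma adjusted p = 0.0518). That at -901 bp fell by 1.87 (0.0503).

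Further upstream of CDKN1C the SMAD3 IP signal changed more than the mock signal at 3 probes with large changes. At -3977 bp it was 164100 and 138100 at the basal level and 4064 and 4864 after stimulation, and the log2 ratio of 5.17 and 4.61 went to 1.20 and 1.35 (change -3.61, SE 0.24, limma adjusted p = 0.00612). At -3869 bp it was 105100 and 91040 against 138 and 123, and the ratio fell by 4.84. The mock signal was lower after stimulation at both, with log2 changes of -1.75 at -3977 bp and -4.99 at -3869 bp. At -4783 bp, in the divergent promoter, the SMAD3 IP signal was 1286 and 1744 against 56300 and 50170, and the ratio rose by 4.64. The remaining changes of CDKN1C were rises of 1.04 at -5381 bp, 1.57 at -3719 bp and 1.26 at 2708 bp and a fall by 1.94 at 1810 bp. The probe nearest the start, at -40 bp, had 1.05 and 1.17 against 0.07 and 0.44 (change -0.86, adjusted p = 0.063).

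MYC encodes the transcription factor whose repression by SMAD3 is a known step of the arrest. Of its 19 probes well above background, 3 changed. At -942 bp the log2 ratio went from -0.53 and -0.10 to -5.15 and -6.19, a change of -5.35 (SE 0.45, limma adjusted p = 0.00918). There the mock signal was 130 and 104 at the basal level and 16340 and 21040 after stimulation, and the SMAD3 IP signal 106 and 136 against 610 and 446, so both channels were higher after stimulation. At -436 bp the ratio went from 1.1 and 0.86 to -1.16 and -0.82, by -1.97, with mock signals of 1134 and 1574 against 4024 and 3237. At 941 bp it rose from -1.21 and -0.58 to 2.48 and 2.16, by 3.22, and the SMAD3 IP signal there was 157 and 304 against 2017 and 2072. The probe nearest the start, at -65 bp, had -0.62 and -0.65 against -1.06 and -1.39 (adjusted p = 0.107).

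At CDC25A the probe nearest the start, 76 bp inside the gene, carried most of the change of its window. Its log2 ratio was 4.46 and 4.26 at the basal level and -0.47 and -0.58 after stimulation, a change of -4.88 (SE 0.13, limma adjusted p = 0.00209), or 29.5-fold. With normexp it was -1.69 (adjusted p = 0.603). The mock signal was 307 and 490 against 17910 and 22170, and the SMAD3 IP signal 7960 and 13180 against 17170 and 23020, so that both were higher after stimulation and the mock signal by more. At 523 bp the ratio fell by 0.80, and there the SMAD3 IP signal changed more (-1.22 on the log2 scale) than the mock signal (-0.31). Over all probes annotated to CDC25A the change was -0.30 (adjusted p = 0.077).

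**Figure D4:**
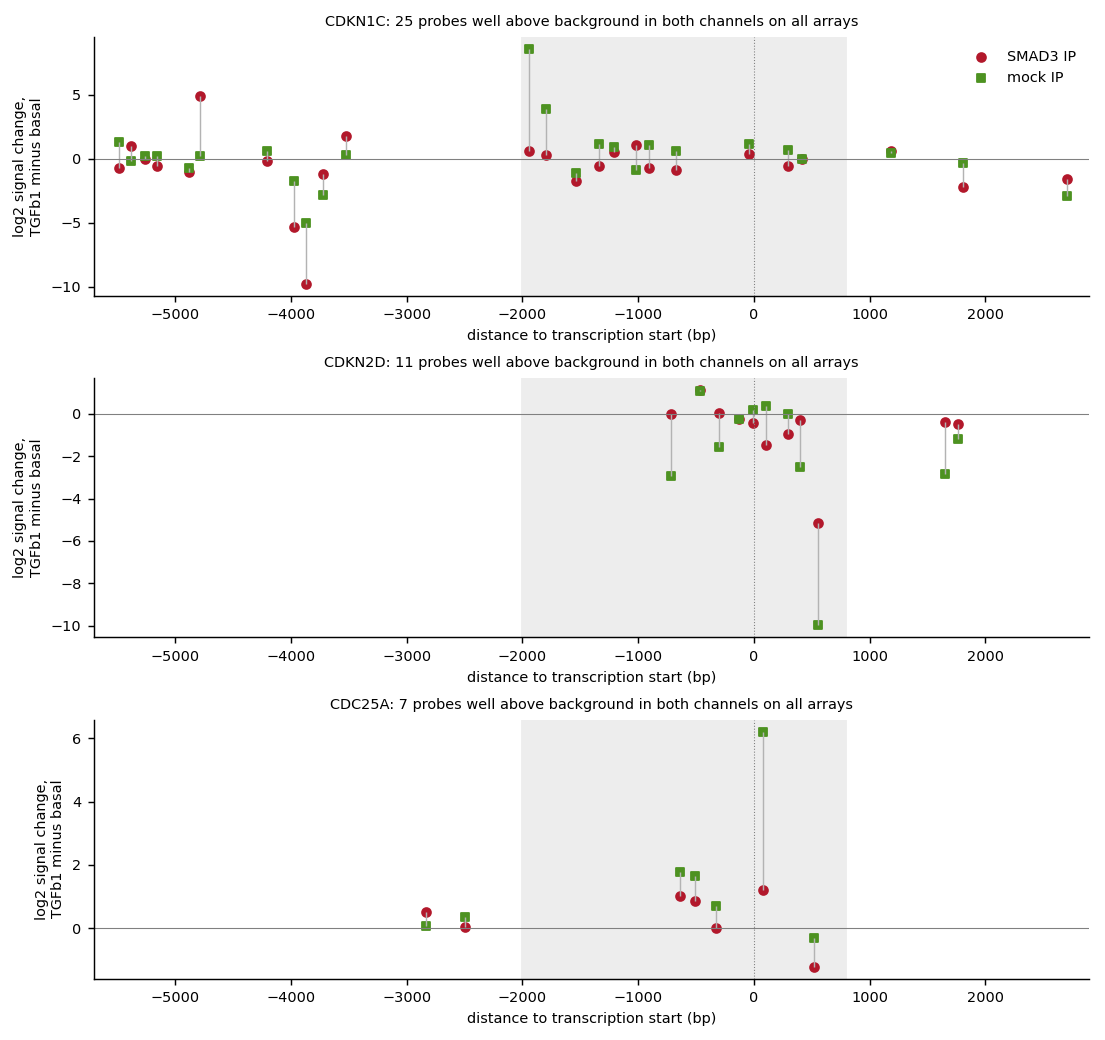
Log2 change of the SMAD3 IP signal (red circles) and of the mock IP signal (green squares), stimulated minus basal, for the probes of CDKN1C, CDKN2D and CDC25A that were well above background in both channels on all arrays, against the distance to the start; the window is grey and lines join the channels of a probe. In the window the widest gaps, at -1940 bp of CDKN1C, 557 bp of CDKN2D and 76 bp of CDC25A, have the larger change in the mock channel.

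Of the 41 probes that changed and were well above background on all arrays, 16 rose and 25 fell. The mock signal changed more than the SMAD3 IP signal at 22 of them and less at 19. Among the 16 that rose these were 9 and 7, and among the 25 that fell 13 and 12. No signal of these 41 probes was a surrogate value, which the scanner software sets for dim signals, and saturation was not checked. A log2 change over 3 in either direction was found at 11 of them, 5 of which belonged to CDKN1C. Of 51 pairs of neighbouring probes well above background and at most 200 bp apart, 28 (54.9%) changed with the same sign, beside 55.4% of such pairs on all arrays. Where both probes of a pair passed the test, the sign was shared by 5 of 7 pairs, beside 66.0% of all such pairs.

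**Figure D5:**
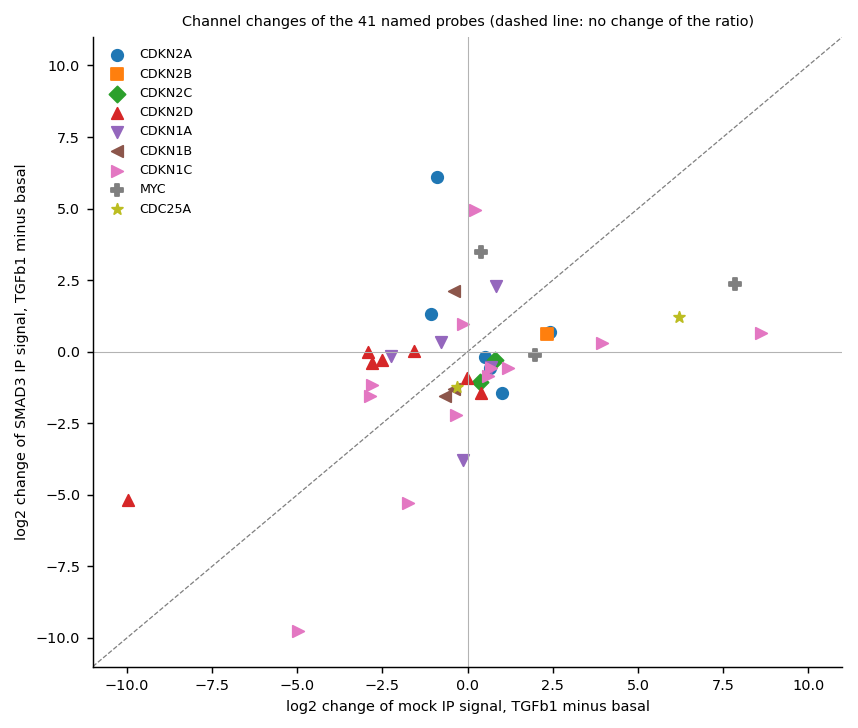
Log2 change of the SMAD3 IP signal against that of the mock IP signal, stimulated minus basal, for the 41 probes that changed and were well above background in both channels on all arrays; each symbol is a gene and the dashed line marks equal changes of both channels. Of the 41 probes, 22 have the larger change in the mock channel, among them 5 of CDKN2D.

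Some probes had a ratio above the array median in both conditions. These were 14 of the 115 probes well above background (12.2%), in 6 genes, where 12.1% of such probes over the arrays did so in the same limma fit. They include, chosen after their values were seen, 2 probes of CDKN1A at -174 and 429 bp and 2 of CDKN2D at -128 and -461 bp, none of which changed. At 429 bp of CDKN1A the log2 ratio was 3.41 and 3.01 at the basal level and 2.81 and 2.58 after stimulation, and at -128 bp of CDKN2D the means were 3.22 and 3.16. The probe at -174 bp of CDKN1A had means of 1.47 and 1.55.

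A peak shape was also fitted to all probes of each gene in each condition, since the study reads binding from fitted peaks. The study asks for a low p-value of the peak in more than 1 replicate, which was not computed here. Its other criterion is a height of at least 1.5, the enrichment at the centre. All 9 genes had a higher fit than that at the basal level and 7 after stimulation, where 76.4% and 73.5% of 16876 genes passed, so this height alone did not set them apart. Heights at the basal level ran from 1.52 at CDKN1A and CDKN2C to 4.92 at CDKN1C, around a median of 2.46 over all genes. The centre was fitted anew in each condition and often lay elsewhere, so the 2 heights of a gene need not belong to 1 peak. For CDC25A the probe nearest the centre was at 76 bp at the basal level and -2828 bp after stimulation, and for CDKN2B at 474 and -1832 bp. CDC25A had heights of 3.73 and 1.23 and CDKN2B of 2.64 and 1.41. CDKN2A had 2.83 and 5.28, MYC 2.30 and 1.62, CDKN2D 2.30 and 2.83, CDKN1A 1.52 and 1.74 and CDKN2C 1.52 and 1.87. The heights of 68.6 at CDKN1B and 21.1 at CDKN1C after stimulation were fitted to centres with no probe within 250 bp, and with fragments of up to 1000 bp they were 16 and 10.6. These heights have no test.

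Of 44 other genes of the same program, in 5 lists, 42 had a tested window, of which 11 rose and 6 fell, with a median log2 change of 0.07. These 17 are 40.5% of the 42, where 47.8% of all windows were called, 20.3% higher and 27.5% lower, around a median of -0.06. Among the kinases and cyclins that the inhibitors restrain, 2 of 9 rose and 2 fell (median -0.06). CCNA2, the S phase cyclin A2, rose by 3.08 (limma adjusted p = 3.05e-06) from -1.995 and -2.33 to 0.95 and 0.88, and CDK6 by 0.76 (0.00632). CCND3 fell by 1.14 (0.00125) and CCNE2 by 0.83 (0.00219). Among MYC partners and relatives 3 of 9 rose and none fell (1 at an unadjusted p under 0.05; median 0.13): MXD3, a MAX partner that opposes MYC, by 1.24, MYCN by 1.03 and MXD1 by 0.45.

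Pocket proteins and E2F factors, which hold back or drive S phase genes, had 3 of 9 windows higher and 1 lower (median 0.04). RBL1 (p107), known to act with SMAD3 and E2F4 at the MYC promoter, went from -1.24 and -1.36 to 0.52 and 0.49, a rise of 1.80 (limma adjusted p = 2.15e-05). E2F4 rose by 1.53, RB1 by 1.1, and E2F2 fell by 0.61. Of 7 genes of inhibitor turnover and cell cycle phosphatases, 3 fell and none rose (0 at an unadjusted p under 0.05; median -0.47). SKP2, which targets p27 for degradation, went from 0.40 and 0.66 to -1.76 and -2.15, a fall by 2.49 (adjusted p = 1.64e-05), and CDC20 and WEE1 fell by 0.72 and 0.65. Of 8 partners of SMAD proteins, 3 rose and none fell (0 at an unadjusted p under 0.05; median 0.25): CEBPB by 0.95, SMAD2 by 0.61 and SMAD4 by 0.49.

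In none of these 17 changed windows did the SMAD3 IP signal pass its own limma test (5 had an unadjusted p under 0.05), and in 6 the mock signal did. Of all windows whose ratio changed, the SMAD3 IP signal passed in 4.79% and the mock signal in 26.4%. The mock change was the larger of the 2 in 13 of the 17, where it was in 70.1% of all windows that changed. With the normexp correction all 17 kept their sign and 5 passed the test. Of all windows, whether or not their ratio changed in the main fit, 10.3% passed with normexp, so this is not a matching share. The share among all windows that changed in the main fit was not computed.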

How the data were processed

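SMAD3 ChIP-on-chip data of A549 cells were analysed as 2 replicates per condition, taken from the labels. The authors deposited intensity values per spot and channel from Agilent Feature Extraction 9.5.1.1 (from the submitters' processing notes), background-subtracted, detrended and scaled per dye within each array, with surrogate values for dim signals. They also deposited log2 ratios of SMAD3 IP to mock IP, which differed from those recomputed here by at most 3.13e-06. The study names hg17, but the probe annotation states no build, so no array coordinates are given.

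Control spots and 1404 outlier probes were left out, and log2 ratios were centred per array on the median, with no loess or quantile step. Windows held at least 3 probes. Changes were tested with limma 3.58.1 (lmFit, eBayes, Benjamini-Hochberg over all probes or windows). The fits were also run on simulated data with independent noise, which cannot show how they handle a difference between whole conditions. Because both DNA pools were amplified by PCR and 39.1% to 58.3% of the signals per array and channel were surrogates, dim probes carry little information. The number of arrays limits the precision. All arrays were scanned on 1 day with 1 scanner, so scan batches could not be tested.

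The 9 genes and the lists were chosen with earlier results of these data known. Named probes are the one nearest the start of each gene and each that changed and was well above background on all arrays, and up to 4 genes per list, those with the largest changes, are named. The alternatives comprised normexp (offset 50), loess, no centring, only probes well above background, a replicate block, an intensity trend, other windows (all probes, 500 bp, 250 bp around a joint peak), at least 5 probes, each slide on its own, fragments of up to 1000 bp and leaving out each replicate. Leaving out replicates in the fits of each channel was added after seeing the data. Python 3.11.15 (numpy 2.4.6, pandas 2.3.3, numba 0.67.0) and R 4.3.3 were used.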

Additional observations from a re-analysis of the deposited data

How the results depend on the processing

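Dim signal and 2 replicates per condition limit these results. Of the 41 probes that changed and were well above background on all arrays, none changed sign under any alternative, but 8 remained called with normexp, 31 with the replicate block and between 8 and 20 when a replicate was left out. Of the probes nearest a start without a call, the change took both signs when a replicate was left out at CDKN1B at -28 bp (-0.80 to 1.03) and CDKN2B at -3 bp (-0.14 to 0.27). Where a replicate was left out, the lone sample was assumed to vary like the others. The 41 probes were chosen because they passed the test on these ratios, so their kept signs were close to fixed in advance. The replicate block, the intensity trend, the restriction to probes well above background and the fit per slide use the same centred ratios. These leave the change of a probe as it was. Over all probes of the 9 genes, 4 rose and 6 fell with normexp in place of 25 and 30, and leaving out a replicate gave 10 to 15 and 6 to 17.

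For the 9 windows, where 1 rose and 2 fell, 2 rose without centring, with loess and with only probes well above background, 0 rose and 0 fell with normexp, 4 fell with only probes well above background, 1 fell over all probes of the gene, and 0 rose within 500 bp of the start and within 250 bp of the joint peak. Of all windows called, 42.5% were higher in the main fit, 55.5% without centring and 50.7% with loess, and the median change of all windows moved from -0.06 to 0.08 without centring and to -0.18 with only probes well above background. At the basal level, 1 higher window became 4 without centring, 3 with loess, with only probes well above background and within 500 bp, 6 near the joint peak, and 0 with normexp and over all probes, while 3 lower ones became 0 with normexp and near the peak and 1 with only probes well above background and within 500 bp. After stimulation, 1 higher window became 5 without centring, 3 with loess, 2 with only probes well above background, 4 near the peak and 0 over all probes. The 4 lower ones became 0 with normexp, 1 without centring, with loess and near the peak and 2 within 500 bp. Within 500 bp 1 window was higher, CDKN1C in place of CDKN2A. The joint peak was fitted to these same ratios, for enrichment only, and 1 probe was enough for a window there. The counts near the peak thus lean towards higher by construction and are no independent check. Leaving out a replicate gave 0 to 1 higher and 2 to 4 lower windows after stimulation. In the mock channel it gave 0 to 6 windows that rose and 0 to 2 that fell.

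Window changes of opposite sign were found at CDKN2A within 500 bp (-0.15), at CDKN2B with only probes well above background (-0.31), within 500 bp (-0.55) and near the peak (-1.19), at CDKN2C without centring (0.033) and near the peak (1.27), at CDKN2D within 500 bp (-0.0023) and at MYC without centring (0.12) and with loess (0.0717), and MYC ranged from -0.34 to 0.26 when a replicate was left out. None of these was called in the main fit except CDKN2D. With only probes well above background, CDKN1B (-0.97), MYC (-1.09) and CDKN2A (0.58) also passed. When a replicate was left out, the SMAD3 IP change took both signs at CDKN1A (-0.41 to 0.52), CDKN1C (-0.66 to 0.43), CDKN2C (-0.20 to 0.26) and CDC25A (-0.15 to 0.98), and the mock IP change did so at CDKN1A (-0.73 to 0.40), CDKN1B (-0.0067 to 0.20) and CDKN2C (-0.0788 to 0.60), none of them called with all replicates. The counts of peak heights over 1.5 stayed within 1.5 times of the main count, but single heights ranged from 1.15 to 3.48 (CDC25A) and from 1.32 to 3.73 (CDKN2B) after stimulation, from 1.62 to 4.29 (CDKN2A) and from 1.32 to 2.64 (CDKN1A) at the basal level, and from 1.87 to 137 (CDKN1B) after stimulation. With the replicate number as a block, 1 window rose and 2 fell, as without it; same-numbered replicates had correlated deviations of 0.109 over windows and 0.021 over probes, so the numbers were not shown to pair the samples. Each gene lay on 1 slide, so windows were not built per slide. CDKN1C had no window near the joint peak. The causes of these differences were not tested.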
